A study of Mus musculus with 2 samples.

Results

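Genes of the hyaluronan and lubricin matrix, 10 in all, were followed across the cell types of mouse periosteum: the hyaluronan synthases *Has1*, *Has2* and *Has3*, the lubricin gene *Prg4*, the hyaluronan receptor *Cd44*, the aggregating proteoglycans *Vcan* and *Acan*, the link proteins *Hapln1* and *Hapln3*, and the hyaluronan-binding *Tnfaip6*. They were taken by symbol from the 31253 listed genes, and all 10 had at least 1 unique molecular identifier (UMI, a tag that marks 1 captured mRNA molecule) in each library. The 2 BD Rhapsody single-cell libraries, 1 per genotype, came from periosteal cells sorted for the reporter from the femurs and tibias of 8-week-old mice. The control mice were Prx1 Cre; Ai9/+, and the other mice were Prx1 Cre; Ai9/+; Piezo1 fl/fl, so both groups carried the Cre and 1 copy of the red reporter and differed in the floxed *Piezo1* alleles. Prx1 Cre is driven by an enhancer of *Prrx1* that is active in early limb mesenchyme, so the reporter and the deletion are expected in its descendants in bone, tendon and connective tissue. Macrophage-like and endothelial-like cells, which do not come from that lineage, were nevertheless present after the sort. The paper on these data states in general that controls were littermates of matched sex, but says nothing of the Piezo1 fl/fl mice. The number of mice behind each library is not given in the sources used here.

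Hyaluronan is a long sugar polymer that synthases in the cell membrane spin directly into the matrix. Cells hold it through CD44, and the proteoglycans versican and aggrecan bind it in large aggregates that link proteins stabilise, while TSG-6, the product of *Tnfaip6*, moves protein chains onto it during inflammation and in the matrix around cells. Lubricin, the product of *Prg4*, coats gliding surfaces such as cartilage, synovium and tendon sheath together with hyaluronan.

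*Piezo1* itself had 132 control UMIs and 69 Piezo1 fl/fl UMIs, or 5.18 and 2.41 CPM (counts of the gene per 1000000 UMIs), which is low in both, and a count at the 3′ end of the mRNA may lie outside the deleted part. The libraries held 28030299 and 32337308 UMIs in 6118 and 7469 barcodes, 50 barcodes occurred in both, and 4418 and 5084 cells were retained, with medians of 4812.5 and 4593 UMIs. Cells were clustered in each library without the 10 genes and named from other markers, with "-like" added. In all, 9 types were named in both libraries with at least 20 cells: SSPC-1-like and SSPC-2-like (skeletal stem and progenitor cells), *Pi16* and *Gdf10* fibroblast-like, tendon-like, lining-like, mural-like, endothelial-like and macrophage-like. The lining-like clusters, of 55 control and 122 Piezo1 fl/fl cells, had *Htra4*, *Hbegf*, *Clic5* and *Tspan15* among their 10 leading genes in both libraries, and 7 and 6 of 7 lining markers were detected. Only 14 and 13 cells were chondrocyte-like. Mature osteoblast-like and perineurial-like clusters were found in the control library alone, and in the Piezo1 fl/fl library the osteoblast genes *Ibsp* and *Bglap* were among the leading genes of the SSPC-2-like cluster. That library also held an unnamed cluster of 414 cells led by *Cfd* and *Adipoq*, an unnamed one of 145 cells led by *Igkc* and a blood-like one of 88 cells. With 1 library per genotype there was no replicate, so no test was made. All intervals are 95% and cover counting error only, and each ratio compares 2 libraries, not 2 conditions.

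**Figure D1:**
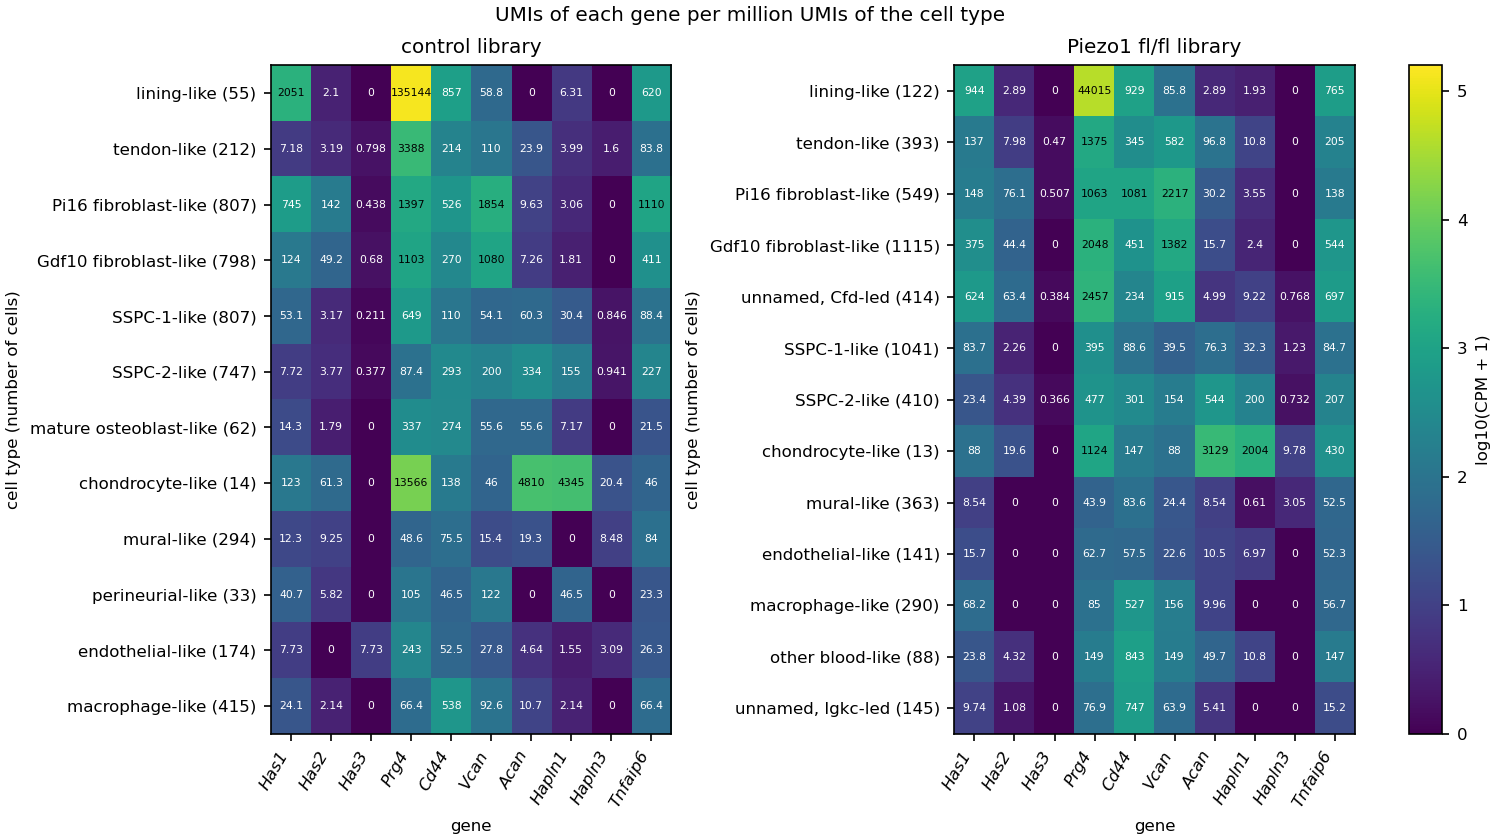
Level of each gene (columns) in each cell type (rows, with the number of cells) of the control and Piezo1 fl/fl libraries, coloured by log10(CPM + 1) and with the CPM printed in each field. *Prg4* was highest in lining-like cells (135144 and 44015 CPM), *Vcan* in *Pi16* fibroblast-like cells (1854 and 2217 CPM) and *Acan* in chondrocyte-like cells (4810 and 3129 CPM).

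*Prg4* (GRCm38, chromosome 1, 150449412 to 150466165, minus strand, 13 merged exons) was the gene with the most UMIs of all in lining-like cells of both libraries. Its level there was 135144 CPM (134101 to 136192) in the control library, against 44015 CPM (43612 to 44420) in the Piezo1 fl/fl library. Lubricin mRNA thus made up 13.5% and 4.40% of everything counted in these cells. No *Prg4* count entered the clustering or the naming. The lining markers were, however, chosen with earlier results of these data known, so the high level is not independent of that choice. With types set cell by cell from the markers the levels were 27878 and 12599 CPM. In single control lining-like cells the share ran from 0.0282% to 30.1% with a median of 14.2%. In the Piezo1 fl/fl library it ran from 0% to 18.3% with a median of 3.64%. The lining-like cells held 74.3% of all *Prg4* UMIs in the control and 60.3% in the other library while making up 1.24% and 2.40% of the cells.

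**Figure D2:**
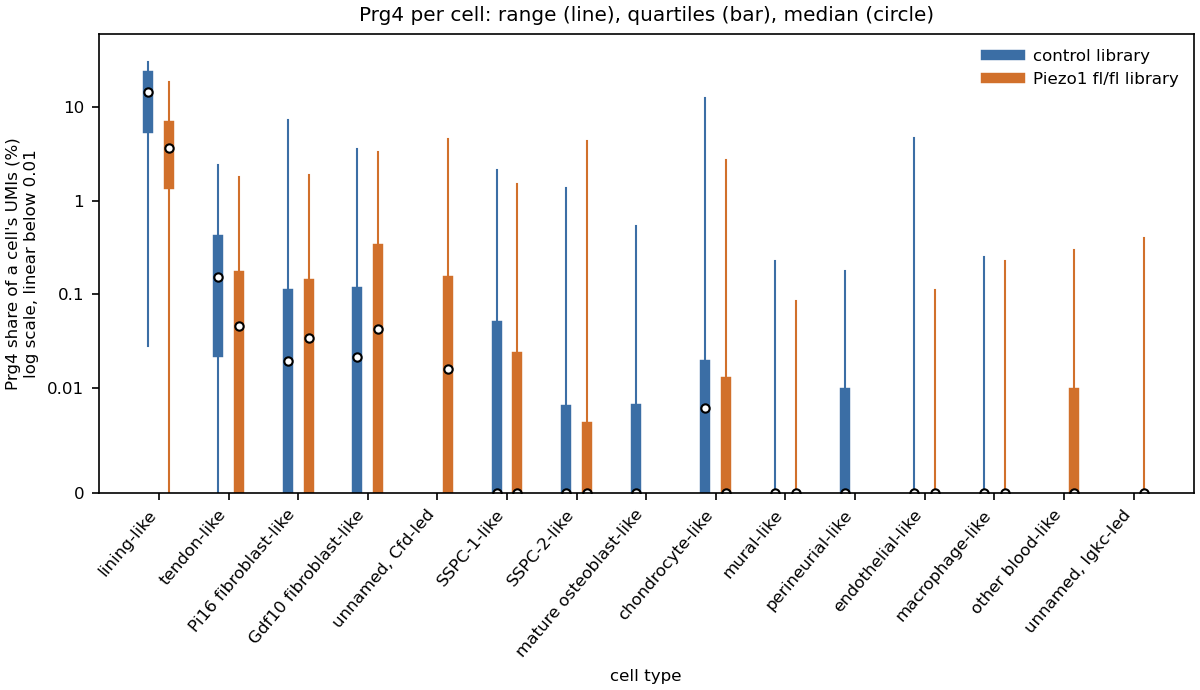
Share of each cell's UMIs that were *Prg4*, by cell type and library (vertical axis in percent, logarithmic above 0.01 and linear below; thin line, range over cells; thick bar, quartiles; circle, median). Lining-like cells had medians of 14.2% and 3.64%, tendon-like cells 0.155% and 0.0460%, and mural-like, endothelial-like and macrophage-like cells medians of 0% in both libraries.

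Outside the lining-like cells *Prg4* was graded, in a different order in each library. In the control it was 3388 CPM (3286 to 3491) in tendon-like, 1397 CPM (1363 to 1432) in *Pi16* fibroblast-like, 1103 CPM (1072 to 1134) in *Gdf10* fibroblast-like and 649 CPM (626 to 673) in SSPC-1-like cells. SSPC-2-like cells had 87.4 CPM (79.6 to 95.7), and the intervals of these levels did not overlap. In the Piezo1 fl/fl library the *Cfd*-led cluster (2457 CPM) and *Gdf10* fibroblast-like cells (2048 CPM) lay above tendon-like (1375 CPM) and *Pi16* fibroblast-like cells (1063 CPM), and SSPC-2-like cells (477 CPM) above SSPC-1-like cells (395 CPM). Most tendon-like cells had it: 80.7% had a *Prg4* UMI in the control and 78.2% once each cell was thinned to 2500 UMIs, against 66.4% and 58.3% in the Piezo1 fl/fl library. Mural-like cells, taken as the background with median depths of 3745 and 3948 UMIs, had 48.6 and 43.9 CPM and 10.1% and 8.79% of thinned cells, and SSPC-2-like cells had 13.8% and 13.5%. Their level in the Piezo1 fl/fl library, 477 CPM, was 220 CPM without its top cell. The chondrocyte-like level of 13566 CPM in the control rested on 1 cell, which held 2627 of the 2657 *Prg4* UMIs. Without that cell it was 172 CPM, and without the top cell of the Piezo1 fl/fl library, which had 99 of 115 UMIs, it was 162 CPM. *Prg4* shares exonic sequence with *Tpr*, a nuclear pore gene on the opposite strand, and without a stated strand the reads of the pair cannot be told apart. *Tpr* was counted at 565 CPM in control lining-like cells, at 277 CPM in those of the Piezo1 fl/fl library, and between 223 and 477 CPM in the other control types.

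Of the synthases, *Has1* (chromosome 17, 17843323 to 17855205, minus strand, 3 merged exons) was highest in lining-like cells, with 2051 CPM (1925 to 2184) in the control library, against 944 CPM (885 to 1005) in the Piezo1 fl/fl library. It was found in 94.5% and 84.4% of these cells, and in 85.5% and 67.2% after thinning. The second place differed between the libraries. In the control it was *Pi16* fibroblast-like cells with 745 CPM (720 to 771), and *Gdf10* fibroblast-like cells had 124 CPM (113 to 134). In the Piezo1 fl/fl library the *Cfd*-led cluster had 624 CPM (594 to 655), *Gdf10* fibroblast-like cells 375 CPM (360 to 390) and *Pi16* fibroblast-like cells 148 CPM (137 to 161). Tendon-like cells of that library, at 137 CPM, did not differ from the *Pi16* type beyond counting error (ratio 1.08, 0.939 to 1.25), and neither did control chondrocyte-like cells, at 123 CPM from 24 UMIs, from the *Gdf10* type (1.01, 0.671 to 1.59). Lining-like and fibroblast clusters thus had the highest levels, and not the only ones. In mural-like cells it was at 12.3 and 8.54 CPM, with a UMI in 4.45% and 0.977% of thinned cells.

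*Has2* (chromosome 15, 56665627 to 56694539, minus strand), the synthase that makes most hyaluronan in embryonic limb tissue, was counted mainly in fibroblasts. *Pi16* fibroblast-like cells had 142 CPM (131 to 153) and 76.1 CPM (67.7 to 85.2), *Gdf10* fibroblast-like cells 49.2 and 44.4 CPM, and the *Cfd*-led cluster 63.4 CPM, which did not differ from the *Pi16* level of that library beyond counting error (ratio 1.20, 0.990 to 1.46). In the control the *Pi16* type held 69.3% and the *Gdf10* type 23.2% of all *Has2* UMIs. Chondrocyte-like cells had 12 and 2 UMIs, and no other type exceeded 9.25 CPM. In lining-like cells, where *Has1* peaked, there was 1 *Has2* UMI in the control library, against 3 in the other, or 2.10 CPM (0.0532 to 11.7) and 2.89 CPM (0.596 to 8.45). The lining-like cells therefore differed from the fibroblasts in which synthase was counted. *Has3* (chromosome 8, 106870242 to 106884566, plus strand) had 14 and 5 UMIs in all retained cells. Its 5 UMIs in control endothelial-like cells, 7.73 CPM (2.51 to 18.0), had no counterpart among the 141 endothelial-like cells of the Piezo1 fl/fl library, where 0 UMIs allow up to 5.23 CPM (the limit of 3 counts; the exact Poisson bound was 6.43 CPM), so a difference was not detectable at this depth.

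*Tnfaip6* (chromosome 2, 52038009 to 52056686, plus strand, 6 merged exons) was highest in the same kinds of cells as *Has1*. In the control it was highest in *Pi16* fibroblast-like cells with 1110 CPM (1079 to 1140), then lining-like cells with 620 CPM (551 to 695) and *Gdf10* fibroblast-like cells with 411 CPM (392 to 430). In the Piezo1 fl/fl library the order was lining-like with 765 CPM (713 to 820), the *Cfd*-led cluster with 697 CPM (666 to 730) and *Gdf10* fibroblast-like with 544 CPM (526 to 562), and *Pi16* fibroblast-like cells had 138 CPM (127 to 150). SSPC-2-like cells, which had at most 23.4 CPM of a synthase, had 227 and 207 CPM, with a *Tnfaip6* UMI in 30.2% and 30.1% of thinned cells against 9.72% and 7.17% in mural-like cells. TSG-6 mRNA was therefore found in these progenitor-like cells as well as in fibroblasts.

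*Has1* and *Tnfaip6* were often found in the same fibroblasts. Among thinned *Pi16* fibroblast-like cells of the control, *Tnfaip6* was found in 65.2% (59.4 to 70.8%) of the 282 cells with a *Has1* UMI and in 21.2% (17.5 to 25.3%) of the 448 without one. In *Gdf10* fibroblast-like cells the shares were 52.7% of 93 and 27.0% of 636 cells in the control, and 53.2% of 250 and 26.3% of 750 cells in the Piezo1 fl/fl library. The gap was smaller in *Pi16* fibroblast-like cells of the Piezo1 fl/fl library, with 30.8% of 107 and 18.9% of 407 cells, where the intervals overlapped.

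**Figure D3:**
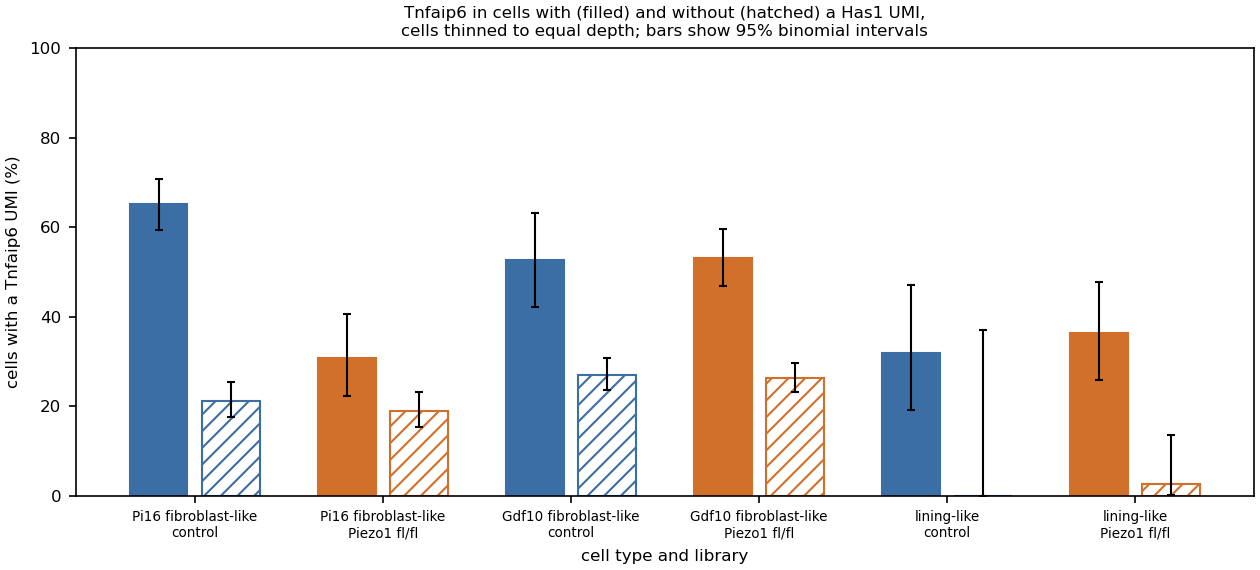
Percentage of thinned cells with a *Tnfaip6* UMI among cells with (filled) and without (hatched) a *Has1* UMI, in 3 cell types of the control and Piezo1 fl/fl libraries, with 95% Clopper-Pearson intervals for counting error only. The filled bar was the higher of each pair, with the widest gap in control *Pi16* fibroblast-like cells, 65.2% against 21.2%.

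Because these genes were counted in the same cells, the DNA in front of their start sites is shown (RefSeq, GRCm38.p6, 5′ to 3′ on the strand of the gene). The 250 bases before the RefSeq start were searched on both strands for the AP-1 motif TGANTCA, the CRE motif TGACGTCA, the TATA box TATAAA and the CCAAT box, motifs that do not overlap each other in the sequences below. Bases that GENCODE places in an exon are left out of what is printed, and capitals mark AP-1 and CRE matches.
*Has1*, chr17:17855206-17855438, minus strand: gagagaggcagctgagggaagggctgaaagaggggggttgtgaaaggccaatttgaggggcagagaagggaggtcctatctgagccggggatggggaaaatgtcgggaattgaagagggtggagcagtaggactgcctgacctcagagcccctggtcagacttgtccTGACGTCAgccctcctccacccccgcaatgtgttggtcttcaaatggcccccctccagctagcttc
*Tnfaip6*, chr2:52037863-52038008, plus strand: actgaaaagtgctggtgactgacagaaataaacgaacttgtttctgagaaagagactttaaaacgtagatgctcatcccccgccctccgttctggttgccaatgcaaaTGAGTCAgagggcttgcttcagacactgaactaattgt
The *Has1* sequence held 1 CRE match, which begins 83 bases before the start, and the *Tnfaip6* sequence 1 AP-1 match, which begins 142 bases before it. Of 32817 such windows across all genes, 1.55% held the CRE motif and 6.75% the AP-1 motif. Each occurred in 1 of the 7 member promoters in the table (*Has1*, *Tnfaip6*, *Cd44*, *Vcan*, *Acan*, *Hapln1* and *Hapln3*), the CCAAT box in 4 of them against 33.8% of all windows, and the TATA box in 1, *Hapln3*, against 12.4%. A match is a description of these letters and not a site of binding.

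Fibroblast clusters with high *Has1* and *Tnfaip6* also had high levels of cytokine and immediate early genes. At a resolution of 0.8 the 12 clusters with over 200 CPM of both *Dpt* and *Clec3b*, general fibroblast markers, spread widely. These markers, the limit and the genes set beside *Has1* were chosen after the values were seen. A control cluster of 343 *Gdf10* fibroblast-like cells had 896 CPM of *Has1* and 2030 CPM of *Tnfaip6*, together with 604 CPM of the cytokine gene *Il6*, 323 CPM of *Ptx3*, whose product crosslinks hyaluronan with TSG-6, and 8051 CPM of *Fos*. Another control cluster of 455 cells with the same name had 30.9 CPM of *Has1*, 107 CPM of *Tnfaip6*, 6.35 CPM of *Il6*, 11.4 CPM of *Ptx3* and 3014 CPM of *Fos*. A *Pi16* fibroblast-like cluster of 73 control cells had 136 CPM of *Has1*, 33.5 CPM of *Tnfaip6*, no *Il6* UMI and 456 CPM of *Fos*. In the Piezo1 fl/fl library the highest *Has1*, 624 CPM, stood in a marrow stromal-like cluster of 319 cells with 734 CPM of *Tnfaip6*, 220 CPM of *Il6*, 262 CPM of *Ptx3* and 8216 CPM of *Fos*. In single thinned control *Pi16* fibroblast-like cells *Il6* was found in 28.4% of those with *Has1* and 3.79% of those without. In the Piezo1 fl/fl library the shares were 3.74% of 107 and 0.737% of 407 cells, with overlapping intervals. In *Gdf10* fibroblast-like cells of the control they were 21.5% of 93 and 4.87% of 636 cells. In those of the Piezo1 fl/fl library they were 22.4% (17.4 to 28.1%) of 250 and 3.87% (2.60 to 5.51%) of 750 cells. The clusters share a library, a digestion and a depth, and the part of these in the pattern was not tested. *Vcan* did not follow it, with 1122 and 1030 CPM in the first pair of clusters.

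**Figure D4:**
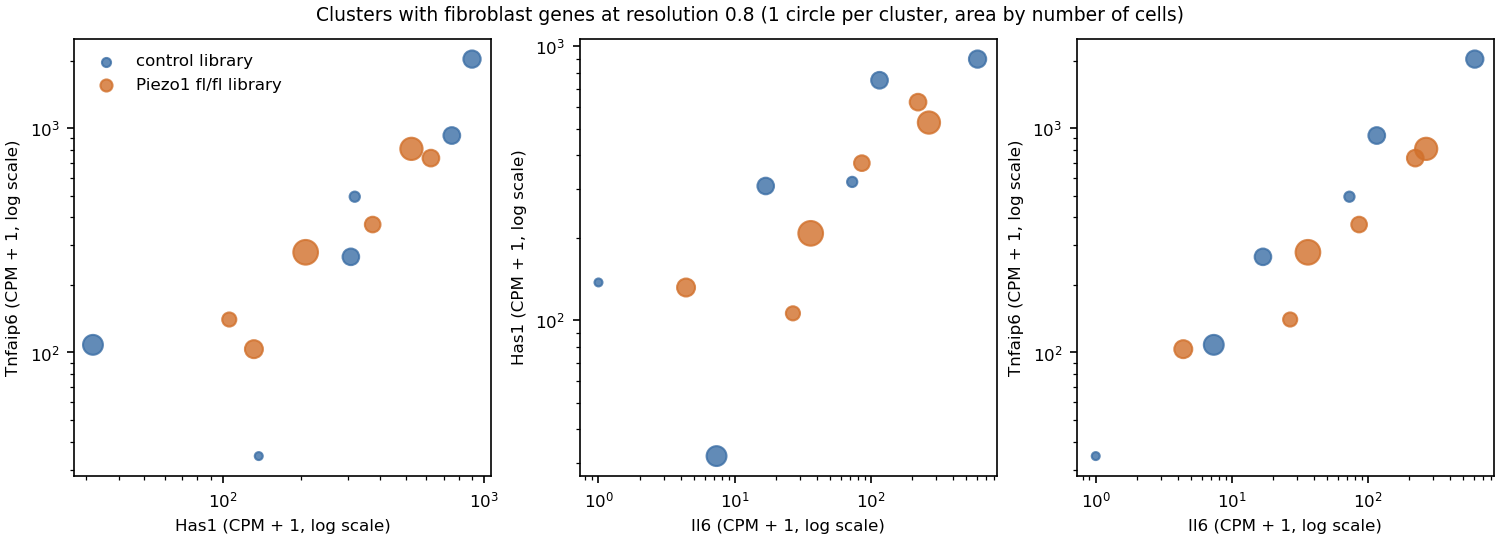
*Has1*, *Tnfaip6* and *Il6* (CPM + 1, logarithmic axes) in the 12 clusters with fibroblast genes at resolution 0.8, 6 per library, with the area of a circle set by the number of cells. *Has1* ran from 30.9 to 896 CPM and *Tnfaip6* from 33.5 to 2030 CPM, and clusters high in *Il6* lay at the upper end of both.

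*Cd44* (chromosome 2, 102811141 to 102901665, minus strand, 19 merged exons), the main cell surface receptor for hyaluronan, was the member most evenly spread. Lining-like cells had 857 CPM (776 to 945) in the control library, against 929 CPM (871 to 990) in the Piezo1 fl/fl library. *Pi16* fibroblast-like cells had 526 CPM (505 to 547) and 1081 CPM (1049 to 1114), and macrophage-like cells 538 CPM (506 to 573) and 527 CPM (488 to 568). In the control the macrophage-like and *Pi16* fibroblast-like levels did not differ beyond counting error (ratio 1.02, 0.950 to 1.10). Blood-like and *Igkc*-led cells of the Piezo1 fl/fl library reached 843 and 747 CPM. CD44 is also a receptor of leukocytes. Mural-like and endothelial-like cells were lowest among the 9 shared types, at 75.5 and 52.5 CPM in the control. Types with much hyaluronan synthase mRNA thus also had the receptor, and macrophage-like cells with little synthase had it too.

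*Vcan* (chromosome 13, 89655312 to 89742509, minus strand, 16 merged exons) encodes versican, the large hyaluronan-binding proteoglycan of loose connective tissue. It was highest in fibroblasts in both libraries. *Pi16* fibroblast-like cells had 1854 CPM (1814 to 1894) and 2217 CPM (2171 to 2264) and *Gdf10* fibroblast-like cells 1080 CPM (1050 to 1112) and 1382 CPM (1353 to 1412). A *Vcan* UMI was found in 94.8% and 97.5% of *Pi16* fibroblast-like cells, and in 91.0% and 93.4% after thinning, against 2.83% and 3.26% of mural-like cells. The *Cfd*-led cluster had 915 CPM, and tendon-like cells had 110 and 582 CPM, with *Vcan* in 13.8% and 43.1% of thinned cells. SSPC-2-like cells had 200 and 154 CPM, SSPC-1-like cells 54.1 and 39.5 CPM and lining-like cells 58.8 and 85.8 CPM. A pseudogene and the antisense gene *Gm4117* lie on the opposite strand within the *Vcan* locus, and *Gm4117* had 97 and 109 UMIs in all.

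*Acan* (chromosome 7, 79053483 to 79115099, plus strand, 18 merged exons), the aggrecan gene of cartilage, and *Hapln1* (chromosome 13, 89539796 to 89611652, plus strand, 5 merged exons), whose link protein locks aggrecan to hyaluronan, were highest in the few chondrocyte-like cells. *Acan* had 4810 CPM (4508 to 5127) and 3129 CPM (2795 to 3491) there, and *Hapln1* 4345 CPM (4058 to 4647) and 2004 CPM (1739 to 2298). Since these cells numbered 14 and 13, they held only 29.6% and 12.0% of the *Acan* UMIs. SSPC-2-like cells held 55.7% and 55.5%. Their *Acan* level was 334 CPM (319 to 350) and 544 CPM (517 to 572), and their *Hapln1* level 155 CPM (145 to 166) and 200 CPM (183 to 217). The Piezo1 fl/fl levels depended on the settings: over 12 others *Acan* ran from 309 to 637 CPM and *Hapln1* from 88.3 to 265 CPM, against 320 to 400 and 131 to 192 CPM in the control. After thinning, 44.6% and 47.9% of SSPC-2-like cells had an *Acan* UMI, where macrophage-like cells had 2.51% and 1.75%, and the *Hapln1* shares were 22.5% and 19.4%, where macrophage-like cells had 0.627% and 0%. Without thinning the SSPC-2-like shares were 61.7% and 58.8% for *Acan* and 40.0% and 30.5% for *Hapln1*. *Hapln1* was in 27.3% of the 319 SSPC-2-like control cells with *Acan* and 18.6% of the 397 without it, and in 25.4% of 185 and 13.9% of 201 cells in the Piezo1 fl/fl library.

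Cells with a UMI of at least 4 of 9 cartilage markers, 13 of them in the SSPC-2-like cluster of the Piezo1 fl/fl library and none in that of the control, had been set apart as chondrocyte-like before these values were read, which by itself lowers cartilage collagen in the cells that remained. Among those, *Col2a1*, the main collagen of cartilage, was found in 0.627% of the thinned control SSPC-2-like cells with *Acan* and in 2.70% of those of the Piezo1 fl/fl library. As a group, the 8 cartilage markers with a UMI in these cells summed to 107 CPM in the control library, against 470 CPM in the Piezo1 fl/fl library, with *Matn3* at 0 in the latter. The largest differences in CPM were those of *Col11a2* (6.59 against 195 CPM) and *Col2a1* (7.15 against 148 CPM). *Sox9* was at 78.5 against 105 CPM. *Col11a2* was also a leading gene of the control mature osteoblast-like cluster, which had 179 CPM of *Col2a1*. The part of osteoblast-like cells in this sum was not tested. *Acan* in single SSPC-2-like cells was low, with a median of 1 UMI in both libraries and a highest value of 28 and 134 UMIs. The SSPC-1-like cells that remained had less of both genes: 60.3 and 76.3 CPM of *Acan* and 30.4 and 32.3 CPM of *Hapln1*. In the control, 13 of the 14 chondrocyte-like cells had been set apart from the SSPC-1-like cluster, against 0 in the Piezo1 fl/fl library. The 14 cells held 942 *Acan* and 851 *Hapln1* UMIs, against 285 and 144 in the control SSPC-1-like cells that remained. Setting them apart by itself lowers the control SSPC-1-like levels. Lining-like cells had 0 and 3 *Acan* UMIs and 3 and 2 *Hapln1* UMIs. *Hapln3* (chromosome 7, 79115102 to 79131018, minus strand), a link protein gene beside *Acan*, had 28 and 16 UMIs in all, of which 11 and 5 were in mural-like cells (8.48 CPM, 4.23 to 15.2, and 3.05 CPM, 0.990 to 7.12).

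Over the 9 shared types, 8 members had at least 20 UMIs in each library. Of these 8, 6 had the same highest type in both (5 with chondrocyte-like cells kept in their clusters). *Has1* and *Prg4* were highest in lining-like, *Has2* and *Vcan* in *Pi16* fibroblast-like, and *Acan* and *Hapln1* in SSPC-2-like cells. The exceptions were *Cd44*, highest in lining-like cells of the control and *Pi16* fibroblast-like cells of the other library, and *Tnfaip6*, for which it was the reverse. The first places of both genes changed with the settings. That of *Tnfaip6* in the Piezo1 fl/fl library was tendon-like at a resolution of 0.8, with a mitochondrial limit of 10% and with doublets kept. It was perineurial-like with types set cell by cell. In the control it was *Gdf10* fibroblast-like at a resolution of 0.8. That of *Cd44* was blood-like in both libraries with 500 to 6000 genes per cell. With types set cell by cell it was blood-like in the control and lining-like in the other library. As a description over these 9 types, Pearson's r of log2(CPM + 1) between *Has1* and *Tnfaip6* was 0.82 in either library, between *Has2* and *Vcan* 0.81 (control) and 0.90 (Piezo1 fl/fl), and between *Acan* and *Hapln1* 0.66 and 0.88. Between *Acan* and *Prg4* it was -0.62 and -0.10. The types share a library and a depth, so no p is given.

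Among 10325 other genes, the pattern nearest to *Has1* over the 9 types was that of *Gfpt2* (r of 0.93 and 0.91), an enzyme of the pathway that makes the amino sugar of hyaluronan, followed by *Sidt2* and *Cd164*. For *Has2* the nearest were *Slc6a2*, *Arsi* and *Adamtsl4*, and for *Vcan* they were *Stra6*, *Adamtsl4* and *Qpct*. For *Prg4* they were *Gm17455*, *Pigk* and *Zfp385b*, for *Cd44* they were *Camk1d*, *Ttc39c* and *Cdr2*, and for *Tnfaip6* they were *Col5a3*, *Cyp1b1* and *Selenon*. The genes nearest to *Hapln1* were *Tmeff1* (0.93 and 0.98), *Efna5* and *Dlx5*, and those nearest to *Acan* were *Porcn* (0.91 and 0.89), *Ncam1* and *Dlx6*. *Dlx5* and *Dlx6* are neighbouring homeobox genes of bone-forming cells, and *Dlx5* was also a marker used to name SSPC-2-like cells.

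The Piezo1 fl/fl library was then set against the control within each type. Of 61 pairs of a member and a type with at least 20 UMIs over both libraries, 20 (32.8%) lay past 2-fold, 13 higher and 7 lower in the Piezo1 fl/fl library, against 7.74% of the 85357 pairs of all genes and types. For 12 of the 20 the whole interval lay past 2-fold. The makeup of a type of the same name differed between the libraries, and markers of other types are given beside the pairs they moved with.

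**Figure D5:**
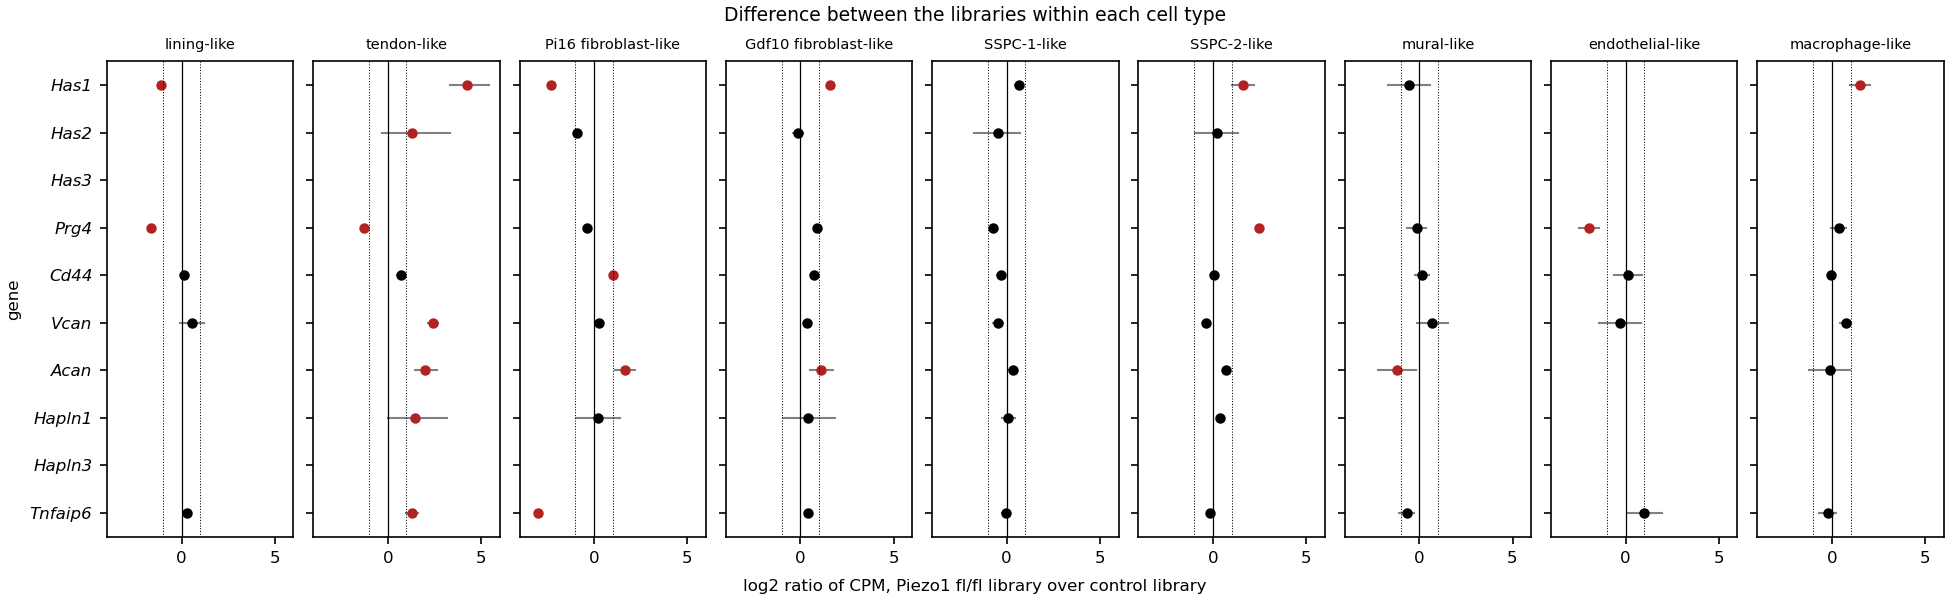
Log2 ratio of CPM, Piezo1 fl/fl library over control library, for each gene with at least 20 UMIs in a type (points; red, past 2-fold; grey lines, 95% intervals for counting error; dotted lines, 2-fold). Tendon-like cells had 7 of 8 genes past 2-fold. SSPC-1-like cells, with 13 chondrocyte-like cells of the control set apart, had 0 of 8.

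In lining-like cells 2 of 5 members were past 2-fold, both lower, against 12.0% of all genes. *Prg4* had a log2 ratio of -1.62 (-1.64 to -1.60) and *Has1* of -1.12 (-1.25 to -0.99). *Cd44* did not differ beyond counting error (0.12, -0.05 to 0.29), and *Tnfaip6* was at 0.30 (0.11 to 0.50), with the order of the libraries turned in 2 of 12 other settings. So the most abundant transcript of these cells and their synthase were lower in the Piezo1 fl/fl library, and the interval of the receptor included 0. All 7 lining markers were lower there too, among them *Clic5* (-1.71) and *Htra4* (-1.14), their sum was 14968 against 7513 CPM, and the 6 macrophage markers summed to 33.6 against 93.5 CPM. Whether the cells themselves or the makeup of the cluster differed was not tested. Dividing by the total without *Prg4* gave -1.76 for *Prg4* and -1.27 for *Has1*.

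In *Pi16* fibroblast-like cells 4 of 8 members were past 2-fold, against 7.86% of all genes. *Tnfaip6* (-3.01, -3.14 to -2.88) and *Has1* (-2.33, -2.46 to -2.20) were lower and *Cd44* (1.04, 0.97 to 1.11) and *Acan* (1.65, 1.14 to 2.18) higher in the Piezo1 fl/fl library, and *Has2* was at -0.90 (-1.10 to -0.70). Over 12 other settings *Cd44* stayed past 2-fold in 8 (lowest 0.57) and *Acan* in 10 (lowest 0.65). *Il6* was 213 against 12.4 CPM and *Fos* 4300 against 1320 CPM in the same cells. In *Gdf10* fibroblast-like cells 2 of 8 were past 2-fold, both higher, against 4.87% of all genes. These were *Has1* (1.60, 1.47 to 1.74) and *Acan* (1.11, 0.52 to 1.73), and *Prg4* was at 0.89 (0.85 to 0.94). *Has1* thus had opposite signs in the pair of fibroblast types. In *Gdf10* fibroblast-like cells the sign turned with the clustering: *Has1* was at -1.27 with a resolution of 0.8 and -0.11 with 30 principal components, and *Acan* at -0.66 with 30 principal components and -0.75 with a mitochondrial limit of 10%. All 6 *Gdf10* fibroblast markers were lower in these cells too, at 6522 against 3551 CPM in sum, among them *Lpl* (-1.51). The *Gdf10* name covered 2 clusters in the Piezo1 fl/fl library and 1 in the control. When the *Pi16*, *Gdf10* and *Cfd*-led clusters were pooled, a choice made after the values were seen, *Has1* was 440 against 356 CPM (log2 ratio -0.31, -0.37 to -0.24), *Tnfaip6* 766 against 450 CPM (-0.77, -0.82 to -0.72), *Has2* 96.2 against 58.0 CPM (-0.73, -0.87 to -0.59) and *Vcan* 1474 against 1544 CPM (0.07, 0.04 to 0.10). Pooled in this way, fibroblasts as a whole had *Acan* alone past 2-fold (1.09, at 8.46 and 18.0 CPM), against 5.22% of all genes.

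In tendon-like cells 7 of 8 members were past 2-fold, against 10.6% of all genes, 6 of them higher. *Has1* was 7.18 against 137 CPM (4.26, 3.31 to 5.40) and *Vcan* 110 against 582 CPM (2.40, 2.15 to 2.67). *Acan* (2.02), *Hapln1* (1.44), *Has2* (1.32) and *Tnfaip6* (1.29) were higher as well, with an interval that included 0 for *Has2* (-0.29 to 3.35). *Prg4* alone was lower, at -1.30 (-1.37 to -1.23). The sum of 9 general fibroblast markers moved with this, from 1352 CPM in the control library to 3717 CPM in the Piezo1 fl/fl library. Of the 9, 6 were higher, with *Ly6a* at 124 and 1335 CPM, *Dpt* at 49.5 and 473 CPM and *Sema3c* nearly level (0.01). The other 3 were lower: *Inmt* (-3.16), *Dpp4* (-1.99) and *Gdf10* (-0.97). Of 6 tendon markers 5 were lower, among them *Kera* (-1.48), and *Scx* was higher (2.50). The part of these fibroblast markers in the tendon-like values was not tested. Over 13 other settings *Has1* stayed past 2-fold in all (1.45 to 6.39). *Vcan* did so in 11 (lowest 0.38) and *Prg4* in 9 (nearest to 0 at -0.64). At a resolution of 0.8 the *Has1* ratio was 6.19. The tendon-like cluster of the Piezo1 fl/fl library then had 570 cells, with 846 CPM of *Dpt* and 727 CPM of *Clec3b*. It was thus among the clusters with fibroblast genes described above. The part of fibroblasts in that ratio was not tested.

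The remaining types held few such pairs. In SSPC-1-like cells 0 of 8 members were past 2-fold, against 6.72% of all genes. The largest ratios were -0.72 for *Prg4* (-0.80 to -0.63) and 0.66 for *Has1* (0.43 to 0.89). This holds for the cells left after 13 chondrocyte-like cells were set apart from the control cluster, and 0 from the other. With chondrocyte-like cells kept in their clusters, 26 of 62 pairs over all types were past 2-fold, 13 of them lower. The SSPC-1-like count in that setting is not given here. In SSPC-2-like cells 2 of 8 were past 2-fold, against 6.64%: *Prg4* at 2.45 (2.30 to 2.61) and *Has1* at 1.60 (1.01 to 2.20, from 41 and 64 UMIs). A single cell held 707 of the 1304 *Prg4* UMIs of the Piezo1 fl/fl library, and without the top cell of each library the ratio was 1.46 (1.28 to 1.64). *Acan* was at 0.70 (0.60 to 0.80) and *Hapln1* at 0.36 (0.21 to 0.52) in these cells, whose 7 mature osteoblast markers summed to 4241 and 11891 CPM. Both signs turned in 6 of 12 other settings: at a resolution of 0.8 *Acan* was 400 against 309 CPM and *Hapln1* 192 against 88.3 CPM, so no direction is given for either. In macrophage-like cells 1 of 6 was past 2-fold (10.3% of all genes), *Has1*, of which 1 cell had 78 of 89 UMIs, and the ratio without the top cells was -0.11. In endothelial-like cells 1 of 4 was past 2-fold (7.89% of all genes), *Prg4*, of which 1 control cell had 103 of 157 UMIs, and the ratio without the top cells was -0.57 (-1.25 to 0.09). In mural-like cells 1 of 6 was past 2-fold (4.54% of all genes), *Acan*, from 25 and 14 UMIs. These last 3 ratios therefore rested on single cells or few UMIs.

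A list of 49 further genes of hyaluronan and chondroitin sulfate metabolism was read in the same way. Of its 249 gene and type pairs with at least 20 UMIs, 36 (14.5%) were past 2-fold, 18 higher and 18 lower in the Piezo1 fl/fl library, against the 7.74% of all pairs, and 28 of 36 genes with enough UMIs had the same highest type in both libraries. Of the sugar precursor enzymes, *Ugdh*, which makes UDP-glucuronate, had 1667 CPM (1553 to 1787) and *Gfpt2* 1417 CPM (1312 to 1528) in control lining-like cells, and 812 and 645 CPM in those of the Piezo1 fl/fl library. There *Ugdh* was highest in *Pi16* fibroblast-like cells (1515 CPM) and *Gfpt2* in the *Cfd*-led cluster (711 CPM). Of the 7 precursor enzymes 6 had at least 50 UMIs in a control type, and 4 of 50 pairs (8.00%) were past 2-fold, a share near that of all pairs. For hyaluronan breakdown *Cemip2* led in SSPC-1-like cells (442 and 413 CPM) and the lysosomal *Hexa* in lining-like cells (351 and 417 CPM), with 3 of 46 pairs (6.52%) past 2-fold. The receptors *Lyve1* (1832 and 3800 CPM) and *Stab1* (596 and 913 CPM) were highest in macrophage-like cells, and 4 of 12 receptor pairs (33.3%) were past 2-fold.

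TSG-6 transfers the proteins of heavy chain genes to hyaluronan. *Itih5* and *Itih2* were highest in control perineurial-like cells, with 9569 CPM (9112 to 10042) and 582 CPM (473 to 707), and that type was not named in the Piezo1 fl/fl library. There *Itih5* was highest in lining-like cells (990 CPM) and *Itih2* in the *Cfd*-led cluster (70.7 CPM). These were the types with the most *Tnfaip6* in that library at the main settings. The match was read over types that did not include perineurial-like cells, and the first place of *Tnfaip6* there changed with the settings. The control had no such match, since its perineurial-like cells had 4 *Tnfaip6* UMIs (23.3 CPM), among the lowest levels of that library. Of the pairs of heavy chains and *Ptx3*, 7 of 20 (35%) were past 2-fold, 3 higher and 4 lower, against 7.74% of all pairs. Proteases that cut aggrecan and versican were split between types. *Adamts1* was highest in mural-like cells (1271 and 1350 CPM) and *Adamts5* in *Pi16* fibroblast-like cells (812 and 435 CPM). Of their 42 pairs 14 (33.3%) were past 2-fold, 6 higher and 8 lower, against the same 7.74%. In the synthesis of chondroitin sulfate, the side chain of aggrecan and versican, *Chst11* (705 and 225 CPM) and *Xylt1* (608 and 293 CPM) were highest in chondrocyte-like cells, as *Acan* was. Here 4 of 79 pairs (5.06%) were past 2-fold, a share below the 7.74% of all pairs. The other lecticans and links, *Bcan*, *Ncan*, *Hapln2* and *Hapln4*, had no type with 50 UMIs in the control and no pair with enough UMIs.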

How the data were processed

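Libraries of periosteal cells sorted for the reporter were made with the BD Rhapsody system, and the deposited values are whole-number UMI counts per gene and cell, not normalized by the authors. The submitters' processing notes name fastp, UMI-tools, STAR and Seurat 4.0.3, and the strand of counting is not given in the sources used here. The members and gene lists were chosen with earlier results of these data known. Retained cells had 1000 to 5000 genes and less than 25% of UMIs from mitochondrial genes, and doublets called by Scrublet (scanpy 1.11.5), 46 of 5551 and 67 of 6784 scored barcodes, were removed. Each library was clustered apart in Seurat 5.3.0 (R 4.3.3; 2000 variable features, 20 principal components, resolution 0.4), with the members left out. A cluster was named where at least 3 markers of a list were detected and the list's mean log2 ratio against the median of the other clusters was at least 2. The name was withheld where another list had more genes among the cluster's 10 leading genes. This left the *Cfd*-led and *Igkc*-led clusters unnamed. A fibroblast cluster also needed at least 3 markers of the *Pi16* or the *Gdf10* list. Cells with a UMI of at least 4 of 9 cartilage markers were called chondrocyte-like. This rule and the limits for naming clusters were set once the clusters were known.

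UMIs were summed per type and divided by the type total (CPM). Intervals at 95% were exact Poisson for CPM, Clopper-Pearson for shares and exact conditional for ratios, made with Python 3.11.15 and scipy 1.17.1. The molecules of a cell are not independent samples of a genotype, so the intervals cover counting error only. Shares of cells were repeated after thinning to 2500 UMIs, which left out 482 and 580 cells. The text names all 10 members, the 2 highest genes of each role of the pathway list with at least 50 UMIs in a control type, and for each member with at least 100 UMIs per library the 3 genes most like it. Marker genes named beside a result, and *Il6*, *Ptx3* and *Fos*, were chosen after their values were seen. Positions are from GENCODE vM21 on GRCm38, to which 31107 of 31253 gene IDs matched. The ratio calculation was tested on simulated data, and 10 other settings chosen at the start and 4 chosen after seeing the data were tried: other cell limits, resolution, components, naming and scaling, and, among the latter, leaving *Prg4* out of the total, pooling fibroblasts, keeping chondrocyte-like cells in their clusters and leaving out the top cell.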

Additional observations from a re-analysis of the deposited data

How the results depend on the processing

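The count of members with the same highest type, 6 of 8, was 5 to 7 over the other settings. The 20 of 61 pairs past 2-fold became 44 of 111 (39.6%, against 9.90% of all genes) when types were set cell by cell over 16 types, and 34 of 82 (41.5%, against 24.9%) with no UMI minimum and 0.5 added to both counts. The split of 13 higher and 7 lower became 9 and 12 with 30 principal components, 13 and 12 at a resolution of 0.8 and 17 and 17 with no UMI minimum. It was 13 and 13 with chondrocyte-like cells kept in their clusters. *Has1* in *Gdf10* fibroblast-like cells turned to -1.27 at a resolution of 0.8 and -0.11 with 30 principal components, and *Acan* there to -0.75 with a mitochondrial limit of 10% and -0.66 with 30 principal components. *Has1* in macrophage-like cells was at -0.16 with types set cell by cell and -0.11 without the top cell of each library, and *Hapln1* in tendon-like cells at -0.33 with types set cell by cell. The cause was not tested. *Prg4* in lining-like cells stayed past 2-fold in 13 of 13 settings (-1.79 to -1.15) and *Tnfaip6* in *Pi16* fibroblast-like cells in 12 of 12 (-3.04 to -1.13). Of 278 levels recomputed, 131 lay outside the counting interval of the reported value. *Acan* and *Hapln1* in SSPC-2-like cells had the opposite order of the libraries in 6 of 12 settings each. No paired analysis was possible because each genotype had 1 library and no test was made. With 1 library per genotype, a difference between mice, sorts or captures cannot be told apart from one between genotypes.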
